A study of Mus musculus with 19 samples.

Results

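The release machinery of the synapse was followed through 3 comparisons of Pou3f1, a POU family transcription factor, in the mouse retina. The 44 genes encode proteins of the synaptic vesicle, its fusion machinery and the active zone. They were chosen by gene symbol from this function, with earlier results of these data known. The shares of them that were called are therefore a description. All 44 are listed in the tables for 14 days and E17.5, which hold 23635 and 35734 genes. The 48 h table of 22294 genes lists 42 of them and leaves out Slc17a7 and Cplx4.

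A presynaptic terminal stores transmitter in vesicles, docks and primes them at the active zone, and fuses them with the membrane when calcium enters. Conventional synapses, as in amacrine and ganglion cells, use complexins 1 and 2 and syntaxin 1. Photoreceptors and bipolar cells release glutamate at ribbon synapses, which use complexins 3 and 4 and syntaxin 3. The genes therefore mark different neuron types of the retina as well as a shared machinery.

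Overexpression was done in wild-type CD1 pups, whose eyes received plasmid DNA by electroporation on postnatal day 1, and GFP-positive cells were sorted and pooled to about 150000 per replicate. Cells with a Gfp control plasmid were compared with cells given Pou3F1, in 3 and 3 libraries after 48 h and in 4 and 5 libraries after 14 days (the protocol text gives postnatal day 14). Loss of function was studied in E17.5 embryos of C57B6J, using the whole retina, with 2 heterozygous (Pou3F1-HET) and 2 homozygous (Pou3F1-KO) libraries, so the control retinas also carry 1 mutant copy. The sources used here name neither the promoter of the plasmids nor the type of mutant allele. Each table gives 1 log2 fold change per gene for a whole comparison and no values for single libraries, so the spread between libraries enters only through the standard error (SE) and the p-value.

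The tables were read with Pou3f1 itself as the guide to direction. In the authors' deposited table, the log2 fold change of Pou3f1 was 0.91 ± 0.26 (SE) in the 48 h cells, 5.57 ± 0.27 in the 14 day cells and -0.69 in the knockout, whose table lists no SE. The first 2 are 1.87-fold at a mean normalized count of 37279 and 47.6-fold at 16972, over Gfp and Pou3F1 libraries together. Taken as it stands, the 48 h value leaves a high Pou3f1 count in the Gfp libraries. Whether it does, or the fold change was pulled toward 0, was not tested. Of 14 rod markers, 4 are listed at 48 h and 14 at 14 days, where rhodopsin alone has a mean normalized count of 1145791 in the authors' deposited table. Ganglion cell markers are far lower, with summed mean counts of 3916 at 48 h and 5772 at 14 days for 15 genes. A gene is called here where the authors' adjusted p was under 0.05. In these bulk samples, fewer cells of a type and less RNA per cell cannot be told apart.

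The start regions of the members that fell both at 48 h and at E17.5 are shown first, to set the sequence beside the values. Of those 4 genes, Bsn, Cplx3 and Sv2b have an entry in the RefSeq promoter table, which uses the GRCm38.p6 build (mm10 in the submitters' notes). Each line gives the 250 bases before the annotated start on the minus strand, in the direction of transcription, and capitals mark CpG dinucleotides. Bsn lies at chr9:108190384-108190633, Cplx3 at chr9:57606282-57606531 and Sv2b at chr7:75309263-75309512.

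Bsn: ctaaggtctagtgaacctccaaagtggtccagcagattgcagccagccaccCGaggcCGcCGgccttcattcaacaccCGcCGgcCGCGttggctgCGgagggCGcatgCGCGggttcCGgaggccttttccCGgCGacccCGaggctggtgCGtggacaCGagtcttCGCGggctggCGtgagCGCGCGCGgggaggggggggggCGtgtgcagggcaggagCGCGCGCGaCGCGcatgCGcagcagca

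Cplx3: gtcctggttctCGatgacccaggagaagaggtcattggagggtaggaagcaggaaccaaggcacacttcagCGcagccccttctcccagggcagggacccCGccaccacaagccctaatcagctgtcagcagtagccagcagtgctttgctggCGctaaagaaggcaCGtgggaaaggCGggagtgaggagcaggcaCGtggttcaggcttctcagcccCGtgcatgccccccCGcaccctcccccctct

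Sv2b: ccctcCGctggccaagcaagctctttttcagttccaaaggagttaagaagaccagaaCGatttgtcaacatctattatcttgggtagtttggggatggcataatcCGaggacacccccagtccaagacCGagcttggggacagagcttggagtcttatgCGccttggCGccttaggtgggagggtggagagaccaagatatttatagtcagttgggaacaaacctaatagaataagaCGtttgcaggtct

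The Bsn stretch holds 32 CpG and 71.6% G or C, a CpG-rich start. The Cplx3 stretch holds 9 CpG and 62.8% G or C. The Sv2b stretch holds 7 CpG and 48.8% G or C. Further start regions of Sv2b, not shown, hold 0, 2 and 8 CpG and 32.8%, 35.2% and 47.2% G or C. The stretches shown thus do not share 1 type of start. Over 46 start regions of 34 members in the RefSeq table, the median was 12.5 CpG and 61.2% G or C per 250 bases, against 6 CpG and 52.4% over all 32851 start regions.

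POU factors bind the octamer ATGCAAAT, so this motif and its first 7 letters, ATGCAAA, were searched on both strands from 250 bases before to 50 bases after each start. The octamer was found in 0 of the 46 member regions and in 1.74% of all regions. The 7-letter form was found in 1 member region, or 2.17%, and in 4.63% of all regions. That region is at Rab3a, a GTPase that tethers vesicles, where the match on the other strand begins 23 bases before the start. The stretch at chr8:70754640-70754702 on the plus strand, GRCm38.p6, reads as follows, with the match in capitals.

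Rab3a: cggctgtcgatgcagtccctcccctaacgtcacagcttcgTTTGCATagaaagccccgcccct

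Rab3a itself was not called in any comparison. Its log2 fold changes in the authors' deposited table were -0.36 ± 0.25 early, 0.092 ± 0.056 late and -0.26 in the knockout (adjusted p = 0.542, 0.250 and 0.0890).

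Between the early and the late collection, most of the members took a larger share of the counts. As a share of all mean normalized counts in the authors' deposited table of each comparison, the members took 3191 parts per 1000000 (ppm) at 48 h and 14475 ppm at 14 days. The 42 genes listed at both times took 11090.4 ppm of the latter. Of the 42 genes listed at both times, 36 had a larger share at 14 days, with a median ratio of 2.82. The 2 tables were normalized separately and each mean covers Gfp and Pou3F1 libraries together, so these ratios are a description with no test. The largest ratios were 8.99 for Dnm1, which cuts new vesicles off the membrane, and 8.93 for Stx3, the syntaxin of ribbon synapses. Syp, the vesicle protein synaptophysin, went from 335 to 1524 ppm. Slc17a7, the vesicular glutamate transporter of photoreceptors and bipolar cells, is not listed at 48 h and took 2861 ppm at 14 days. The 6 genes with a smaller late share were Syt6, Syt5, Stx1a, Cplx2, Rims1 and Syt7. Syt6, a synaptotagmin, had the smallest ratio, from 25.9 to 1.26 ppm. Cplx2, a complexin of conventional synapses, went from 571 to 255 ppm.

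**Figure D1:**
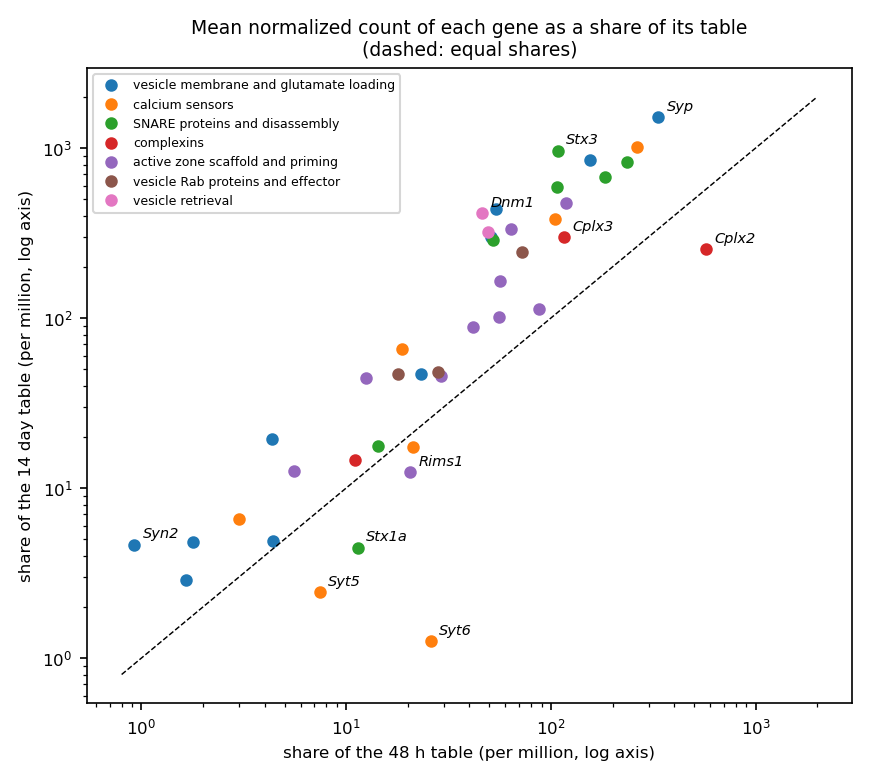
Each point is 1 of the 42 members listed at both times, with its mean normalized count as a share of the 48 h table (x axis, log scale) and of the 14 day table (y axis, log scale), both in ppm, coloured by role. 36 points lie above the dashed line of equal shares, and Syt6 lies furthest below it at 25.9 and 1.26 ppm.

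Levels per length put some of the ribbon synapse genes, but not all, among the highest at 14 days. Divided by exonic length from GENCODE M21, Slc17a7 ranked 1st of 44 with a mean normalized count of 36848 per kb. Syp followed with 22645 per kb, then the fusion protein genes Snap25 (11701 per kb) and Vamp2 (11245 per kb), and then Cplx4, a complexin of ribbon synapses, with 11098 per kb. Stx3 stood at 8235 per kb and Stx1a, the syntaxin of conventional synapses, at 79.5 per kb. Cplx3, the other ribbon complexin, ranked 11th with 3886 per kb, and Bsn ranked 29th with 244 per kb. At 48 h the highest were Syp at 2072 per kb and Cplx2 at 1858 per kb. No SE per level is listed, so neighbours in this order cannot be tested.

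At 48 h the members leaned toward lower values in Pou3F1 cells, and 4 of them passed the test. Of 42 members tested, 0 were higher, 4 were lower and 38 were not called, while 1.48% of all 14714 genes tested were called higher and 1.56% lower. Before adjustment, 2 were higher and 11 lower at p under 0.05. Fold changes were negative for 36 of the 42, with a median of -0.37 on the log2 scale against -0.0059 over all genes tested. The 4 that fell were Sv2b, Doc2b, Cplx3 and Bsn.

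Sv2b, a vesicle glycoprotein, had a mean normalized count of 2480 and a log2 fold change of -0.86 ± 0.24 in the authors' deposited table, or 1.82-fold lower (adjusted p = 0.0191). Doc2b, a calcium sensor of vesicle release, had a mean normalized count of 1679 and a log2 fold change of -0.83 ± 0.23 in the authors' deposited table, or 1.78-fold lower (adjusted p = 0.0156). Cplx3, which restrains and times release at ribbon synapses, had a mean normalized count of 1854 and a log2 fold change of -0.81 ± 0.20 in the authors' deposited table, or 1.76-fold lower (adjusted p = 0.00524). These 3 falls are within 1 SE of each other. Bsn, the giant scaffold protein Bassoon that anchors the ribbon in photoreceptors, had a mean normalized count of 892 and a smaller log2 fold change of -0.48 ± 0.15 in the authors' deposited table (p = 0.0411 after adjustment). With adjustment over all genes that have a p-value, Bsn was not called (adjusted p = 0.0622).

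Several partners had values of similar size that did not pass. Snap25, the membrane SNARE protein, had -0.69 ± 0.23 in the authors' deposited table (p = 0.0786 after adjustment). Pclo, the scaffold Piccolo and close relative of Bassoon, had -0.59 ± 0.20 in the authors' deposited table (p = 0.0698 after adjustment). Unc13c, a priming factor, had -0.63 ± 0.26 in the authors' deposited table (p = 0.196 after adjustment). Rph3a, which binds Rab3 on vesicles, had -0.61 ± 0.24 in the authors' deposited table (p = 0.167 after adjustment). The members' median SE was 0.245 at 48 h and 0.128 at 14 days, so fewer changes can be called at the early time.

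Positive values were found for 6 members. The highest 2 were SNARE genes. Stx1a had a log2 fold change of 0.64 ± 0.22 in the authors' deposited table (p = 0.0857 after adjustment). Vamp1, a vesicle SNARE, had 0.45 ± 0.22 in the authors' deposited table (p = 0.291 after adjustment). Neither was called. The other positive values were 0.19 ± 0.22 for Unc13a, 0.17 ± 0.20 for Erc2, 0.075 ± 0.29 for Syt2 and 0.0038 ± 0.16 for Ppfia2 in the authors' deposited table. Among the sensors, Syt1, the main trigger of fast release, had -0.41 ± 0.22 in the authors' deposited table (p = 0.393 after adjustment), while Syt5 was near 0 at -0.0098 ± 0.26.

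Markers of cell types gave few calls at 48 h. Of 10 progenitor markers 2 fell and 0 rose (median -0.20), of 8 cone markers 1 fell and 0 rose (median -0.22), and of 15 ganglion cell markers 2 rose and 0 fell (median -0.12). Of the 4 rod, 7 bipolar, 11 amacrine, 7 horizontal and 10 Müller glia markers tested, 0 were called, with medians of -0.51, -0.30, -0.19, -0.13 and -0.34. Of 9 blood vessel markers 1 fell and 0 rose (median -0.35), and of 6 microglia and 5 astrocyte markers 0 were called (medians -0.30 and -0.37). The part of these markers in the synaptic values was not tested.

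At 14 days the genes split into both directions, and the split ran within gene families. Of 44 members tested, 7 were higher, 7 were lower and 30 were not called, beside 11.5% of all 17789 genes tested called higher and 9.21% lower. The counts alone therefore do not set the members apart. The median log2 fold change was -0.013, against -0.015 over all genes tested. Those that rose were Cplx2, Syt5, Sv2c, Syt7, Cplx1, Syn1 and Rph3a, and those that fell were Slc17a7, Cplx4, Rims2, Stx3, Sv2b, Napb and Unc13b.

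The complexins show the split most plainly. Cplx2 (chr13:54371349-54383917, GENCODE M21, GRCm38), at a mean normalized count of 9819, had a log2 fold change of 1.54 ± 0.22 in the authors' deposited table, or 2.90-fold higher (adjusted p = 9.11e-10). It had the largest rise of the 44. Cplx1, the other complexin of conventional synapses, had 0.47 ± 0.18 at a mean normalized count of 560 in the authors' deposited table (p = 0.0448 after adjustment). With adjustment over all genes that have a p-value, Cplx1 was not called (adjusted p = 0.0594). Cplx3 had 0.036 ± 0.14 at a mean normalized count of 11476 in the authors' deposited table (p = 0.890 after adjustment). Cplx4 fell, with -0.55 ± 0.16 at a mean normalized count of 20144 in the authors' deposited table, or 1.47-fold lower (adjusted p = 0.00690). The 2 complexins of conventional synapses thus rose, and of the 2 at ribbon synapses 1 fell and 1 was not called.

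Vesicle protein genes also went both ways. Slc17a7, the most abundant member, had a mean normalized count of 110174 and a log2 fold change of -0.57 ± 0.16 in the authors' deposited table, or 1.48-fold lower (adjusted p = 0.00485). Slc17a6, the glutamate transporter of ganglion cells, had a mean normalized count of only 111 and -0.37 ± 0.25 in the authors' deposited table (p = 0.295 after adjustment). Of the SV2 glycoproteins, Sv2c rose by 0.84 ± 0.25 at a mean normalized count of 186 in the authors' deposited table (p = 0.00839 after adjustment). Sv2b, at a mean normalized count of 32801, had -0.35 ± 0.093 in the authors' deposited table (p = 0.00240 after adjustment), and Sv2a 0.095 ± 0.080 (adjusted p = 0.429). Syn1, a synapsin that ties vesicles into the reserve pool, rose by 0.45 ± 0.13 at a mean normalized count of 1804 in the authors' deposited table (p = 0.00571 after adjustment). The general vesicle protein gene Syp had -0.015 ± 0.061 in the authors' deposited table (p = 0.896 after adjustment), the second smallest SE of the 44.

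Among sensors and SNARE genes, 2 synaptotagmin genes rose and the ribbon syntaxin gene fell. Syt5 had a log2 fold change of 1.08 ± 0.28 at a mean normalized count of 93.8 in the authors' deposited table, or 2.12-fold higher (adjusted p = 0.00195). Syt7, a slow calcium sensor, had 0.68 ± 0.21 at a mean normalized count of 674 in the authors' deposited table (p = 0.0118 after adjustment). Syt1, with a mean normalized count of 39093, was not called, at -0.16 ± 0.084 in the authors' deposited table (p = 0.168 after adjustment). Stx3 fell, with -0.35 ± 0.091 at a mean normalized count of 37233 in the authors' deposited table (p = 0.00183 after adjustment). Stx1a had 0.45 ± 0.20 at a mean normalized count of 172 in the authors' deposited table (p = 0.0880 after adjustment). Napb, an adaptor that takes spent SNARE complexes apart with NSF, had -0.33 ± 0.080 in the authors' deposited table (p = 0.000669 after adjustment), and Nsf itself -0.24 ± 0.12 (adjusted p = 0.126).

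At the active zone, Rims2 fell and Rims1 was not called. Both encode scaffolds that hold calcium channels near docked vesicles. Rims2 had a log2 fold change of -0.53 ± 0.17 at a mean normalized count of 12852 in the authors' deposited table (p = 0.0165 after adjustment). Rims1 had 0.43 ± 0.18 at a mean normalized count of 478 in the authors' deposited table (p = 0.0720 after adjustment). Unc13b, a priming factor, had -0.29 ± 0.10 in the authors' deposited table (p = 0.0222 after adjustment), and Unc13a 0.066 ± 0.090 (adjusted p = 0.661). Rph3a had 0.41 ± 0.16 in the authors' deposited table (p = 0.0490 after adjustment), but 0.0649 with adjustment over all genes. Bsn, Pclo, Erc2 and Ppfia2 were not called, with values between -0.23 and 0.17. Differences between paralogs within 1 table were not tested.

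Further genes that passed in none of the comparisons had these values at 14 days. Among vesicle proteins, Syn2, a synapsin, had -0.28 ± 0.20, and the synaptogyrin genes Syngr1 and Syngr3 had -0.17 ± 0.11 and -0.35 ± 0.14 in the authors' deposited table (p = 0.332, 0.269 and 0.0515 after adjustment). Syt2, a fast calcium sensor, had -0.26 ± 0.25 and Syt4, another synaptotagmin, 0.15 ± 0.20 in the authors' deposited table (p = 0.503 and 0.667 after adjustment). Vamp2, the main vesicle SNARE, had -0.23 ± 0.092, Vamp1 -0.27 ± 0.12 and Snap25 -0.023 ± 0.082 in the authors' deposited table (p = 0.0617, 0.0944 and 0.885 after adjustment). Rimbp2, which links active zones to calcium channels, had 0.11 ± 0.24, Rab3c, a vesicle GTPase, 0.26 ± 0.17, and Snap91, a clathrin adaptor, -0.15 ± 0.096 in the authors' deposited table (p = 0.805, 0.288 and 0.264 after adjustment). Some of these values, such as that of Syngr3, are as large as those of called genes such as Stx3 but have wider SEs.

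**Figure D2:**
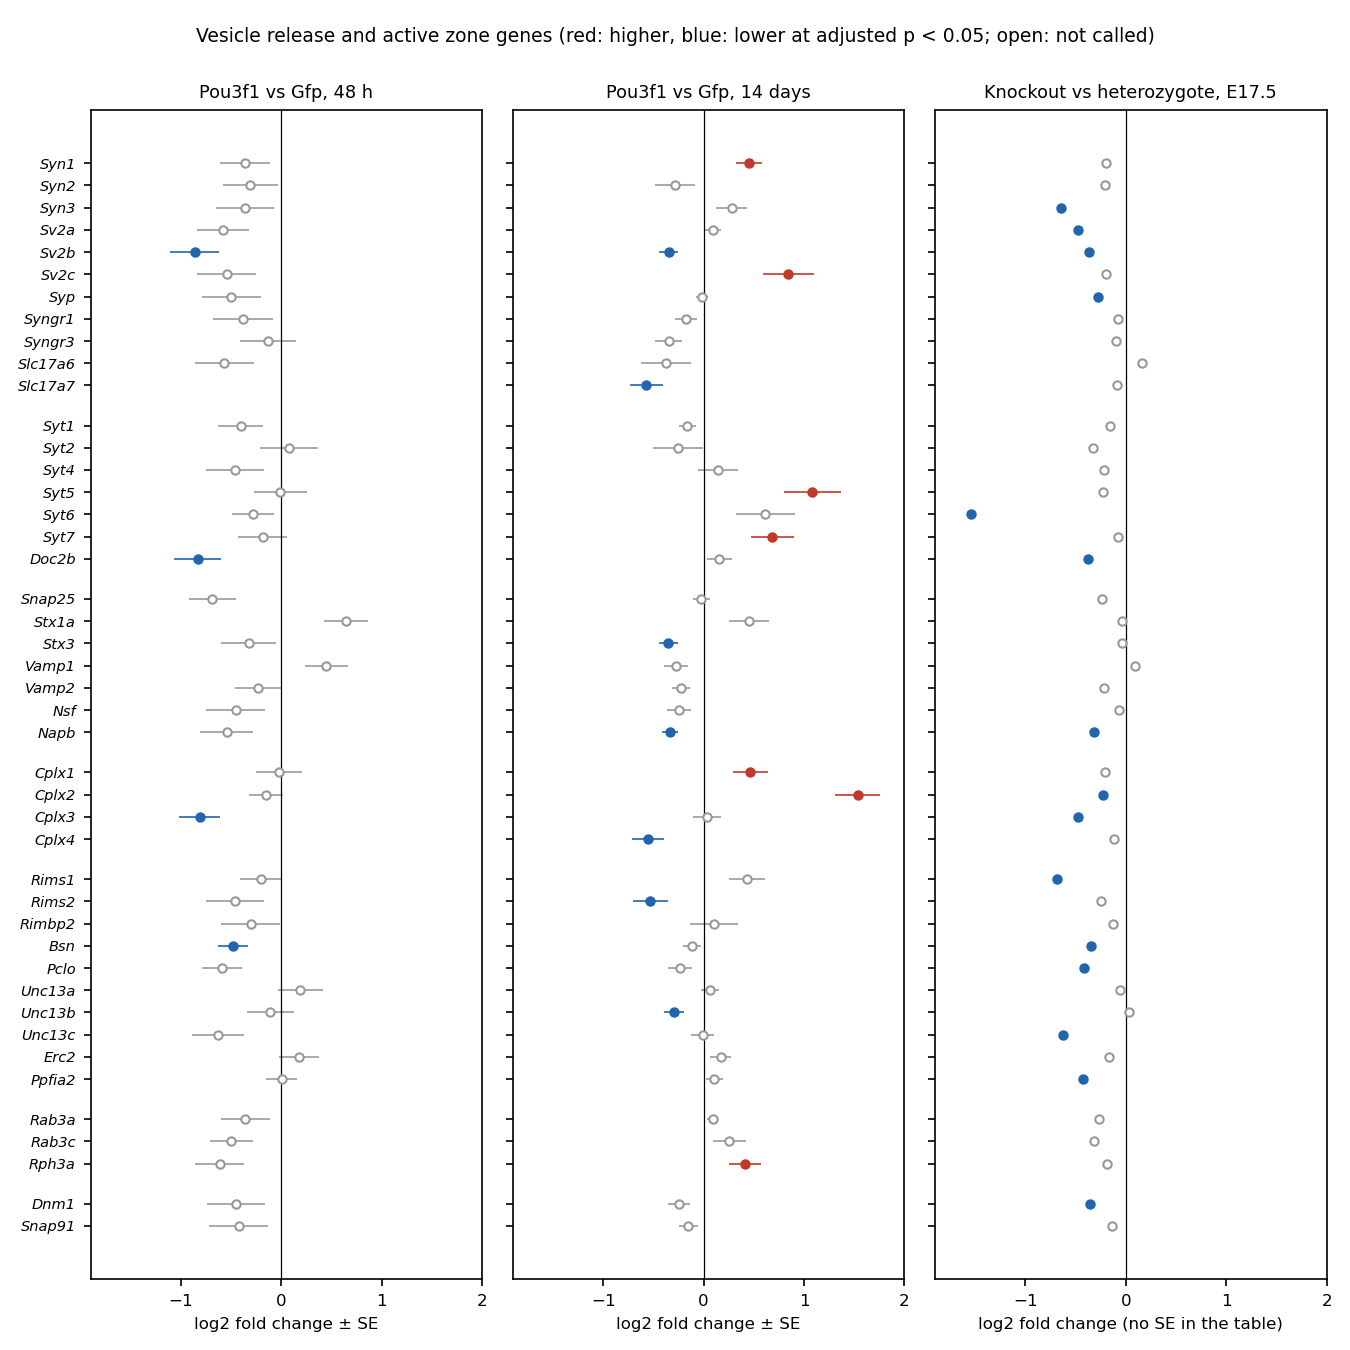
Log2 fold change (x axis) of the 44 genes, grouped by role from the vesicle membrane at the top to vesicle retrieval at the bottom, in the 3 comparisons. Bars are the authors' SE, which the E17.5 table does not list. Filled red and blue points passed an adjusted p under 0.05 (0, 7 and 0 higher and 4, 7 and 15 lower from left to right), and Cplx2 at 14 days and Syt6 at E17.5 stand out at 1.54 and -1.54.

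Markers of whole cell types moved beside these genes at 14 days. Of 14 rod markers 12 fell and 0 rose (median log2 fold change -0.45), and of 10 cone markers 8 fell and 0 rose (median -0.67). Of 12 bipolar markers 3 rose and 1 fell (median 0.12), and of 12 Müller glia markers 7 fell and 0 rose (median -0.40). Of 15 ganglion cell markers 5 rose and 1 fell (median 0.20), led by Pou4f2 at 3.64 ± 0.26 in the authors' deposited table (p = 7.86e-40 after adjustment). Of 11 amacrine markers with an adjusted p, 2 rose and 0 fell (median 0.17), namely Gad2 at 1.21 ± 0.23 and Gad1 at 0.82 ± 0.26 in the authors' deposited table (p = 9.35e-06 and 0.0123 after adjustment). Of 10 progenitor markers 4 rose and 0 fell (median 0.47), and of 9 blood vessel markers 2 fell and 0 rose (median -0.57). Of 7 horizontal cell and 4 astrocyte markers, 0 were called (medians -0.16 and -0.24). All 10 microglia markers rose (median 1.67), with a summed mean count of 2446 over Gfp and Pou3F1 libraries together. The part of these markers in the synaptic values was not tested.

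At E17.5, before most retinal synapses form, loss of Pou3f1 went with lower values for most of the 44 members. The other release genes, given below, had a median of -0.072, nearer to that of all genes. Of 44 members tested, 0 were higher, 15 were lower and 29 were not called, while 4.70% of all 14821 genes tested were called higher and 5.34% lower. Before adjustment, 20 were lower and 0 higher at p under 0.05. Fold changes were negative for 41 of the 44, with a median of -0.22 against 0.0035 over all genes tested. Most of the changes were small, and only Syt6 passed 2-fold.

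Syt6 (chr3:103575231-103645569, GENCODE M21, GRCm38) had a log2 fold change of -1.54 in the authors' deposited table, or 2.91-fold lower in the knockout (adjusted p = 2.37e-20). The next largest falls were those of Rims1 at -0.69, Syn3 at -0.65 and Unc13c at -0.63 in the authors' deposited table (p = 8.03e-06, 0.000215 and 0.00204 after adjustment). Syn3 is a synapsin and Unc13c a priming factor. These falls are all much smaller on the log2 scale as that of Syt6.

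Vesicle proteins that fell were Sv2a, Sv2b and Syp beside Syn3. The glycoprotein gene Sv2a had -0.47 in the authors' deposited table (p = 1.43e-05 after adjustment), Sv2b -0.36 (adjusted p = 0.0124) and Syp -0.28 (adjusted p = 0.00511). The transporter genes Slc17a7 and Slc17a6 had -0.087 and 0.16 in the authors' deposited table and were not called (adjusted p = 0.853 and 0.547).

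Of the complexins, Cplx3 had -0.48 and Cplx2 -0.22 in the authors' deposited table (p = 0.00507 and 0.0230 after adjustment). Cplx1 had -0.21 and Cplx4 -0.12 in the authors' deposited table, and neither was called (adjusted p = 0.340 and 0.771). Among the scaffolds, Ppfia2, a liprin of the active zone, had -0.43, Pclo -0.42 and Bsn -0.34 in the authors' deposited table (p = 0.00104, 0.00108 and 0.0101 after adjustment). So 5 of the 10 active zone genes among the members fell, counting Rims1 and Unc13c. Of 28 other active zone and ribbon genes tested, which are not members, 1 fell and 0 rose. Doc2b had -0.38, Dnm1 -0.35 and Napb -0.32 in the authors' deposited table (p = 0.00465, 0.0235 and 0.0264 after adjustment). Unc13a and Unc13b, relatives of Unc13c, had -0.058 and 0.035 in the authors' deposited table (p = 0.834 and 0.877 after adjustment). Of the SNARE and Rab genes other than Napb, 0 of 9 were called, with values from -0.32 for Rab3c to 0.090 for Vamp1 in the authors' deposited table.

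Markers of several cell types moved beside these genes at E17.5. Of 10 amacrine markers with an adjusted p, 8 fell and 1 rose (median -0.74). Tfap2a, the one with the smallest adjusted p, had -1.18 in the authors' deposited table (p = 3.03e-33 after adjustment). Of 7 horizontal cell markers 3 fell and 0 rose (median -0.31). Of 15 ganglion cell markers 1 rose and 2 fell (median -0.15), and of 7 rod markers 1 fell and 0 rose (median -0.047). Of 11 Müller glia markers 1 rose and 3 fell (median -0.082), including Kcnj10 at -1.08 in the authors' deposited table (p = 1.31e-08 after adjustment). Of 10 blood vessel markers 3 fell and 0 rose (median -0.14), of 9 bipolar markers 1 rose and 2 fell (median -0.062), and of 10 progenitor markers 2 rose and 2 fell (median 0.055). Of 4 astrocyte markers 1 fell and 0 rose (median 0.24), and of 8 cone and 10 microglia markers 0 were called (medians -0.24 and -0.28). Their part in the synaptic values was not tested.

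**Figure D3:**
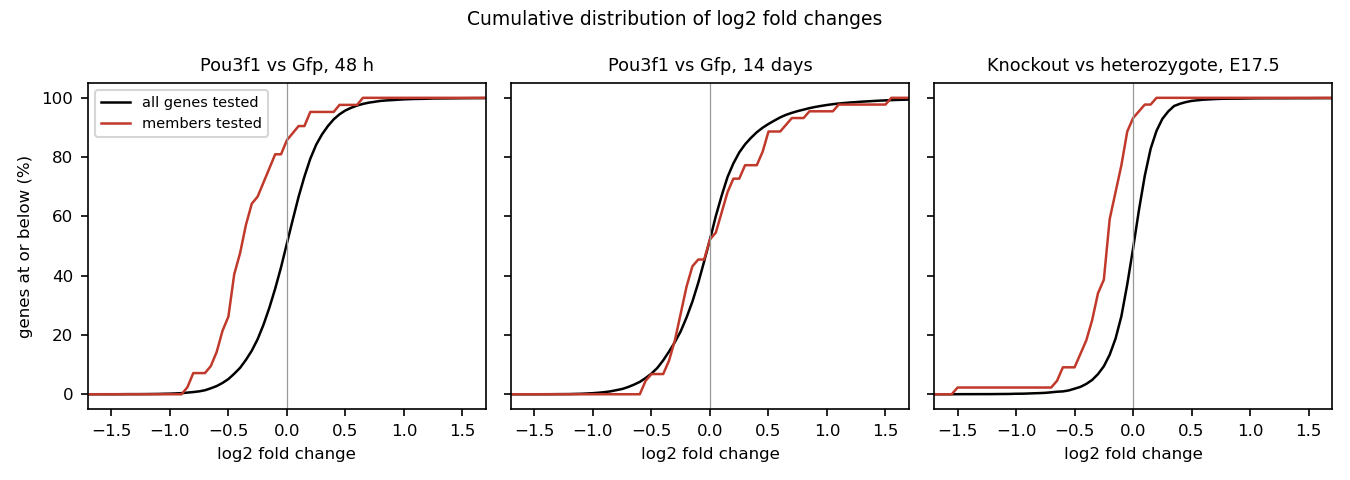
Cumulative share (y axis, %) of genes at or below each log2 fold change (x axis), for all genes tested (black) and the members tested (red) in the 3 comparisons. The red curve lies to the left at 48 h (medians -0.37 against -0.0059) and at E17.5 (-0.22 against 0.0035), and crosses the black curve at 14 days (-0.013 against -0.015).

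The early and late overexpression effects were compared gene by gene, since their libraries are separate. A two-sided z test on the difference of the 2 fold changes, with Benjamini-Hochberg adjustment over 14580 genes, called 5 of the 42 members more positive at 14 days and 0 more negative. Over all genes tested, 4.48% were called more positive and 1.66% more negative. Before adjustment, 16 were more positive and 1 more negative at p under 0.05. The median difference was 0.39 for the members and 0.026 for all genes tested. The z test takes the deposited fold changes and SEs as they stand. SEs at low counts were narrower than counting noise alone gives, as in a fit that pulls fold changes toward 0. They were 0.21 for C1qc at a mean normalized count of 15.3 at 48 h and 0.27 for Pou4f3 at 3.53 at 14 days in the authors' deposited table. The strength of such a pull was not tested. At 48 h the SE was 0.27 for Syn2 at a mean normalized count of 14.8 and 0.29 for Syp at 5369 in the authors' deposited table. A pull of unequal strength at the 2 times would enter these differences. The log2 fold change of Pou3f1 itself also differed, at 0.91 ± 0.26 early and 5.57 ± 0.27 late in the authors' deposited table. Time and the size of the Pou3f1 contrast therefore cannot be told apart.

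Cplx2 differed most, by 1.69 ± 0.28 on the log2 scale (adjusted p = 4.99e-07), from -0.16 ± 0.17 at 48 h in the authors' deposited table. Sv2c differed by 1.38 ± 0.39 (adjusted p = 0.0115), from -0.54 ± 0.29 at 48 h in the authors' deposited table, where its mean normalized count was 28.6. Rph3a differed by 1.03 ± 0.29 (adjusted p = 0.0131). For Doc2b the difference was 0.99 ± 0.26 (adjusted p = 0.00643) and for Cplx3 0.85 ± 0.24 (adjusted p = 0.0151). The first 3 of these genes rose at 14 days, whereas Doc2b and Cplx3 fell at 48 h and were not called at 14 days. The difference was negative for 9 of the 42, and Vamp1, furthest from 0 among them, differed by -0.72 ± 0.25 and did not pass (adjusted p = 0.0547). The difference for Sv2b, lower at both times, was 0.51 ± 0.26 (adjusted p = 0.253).

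**Figure D4:**
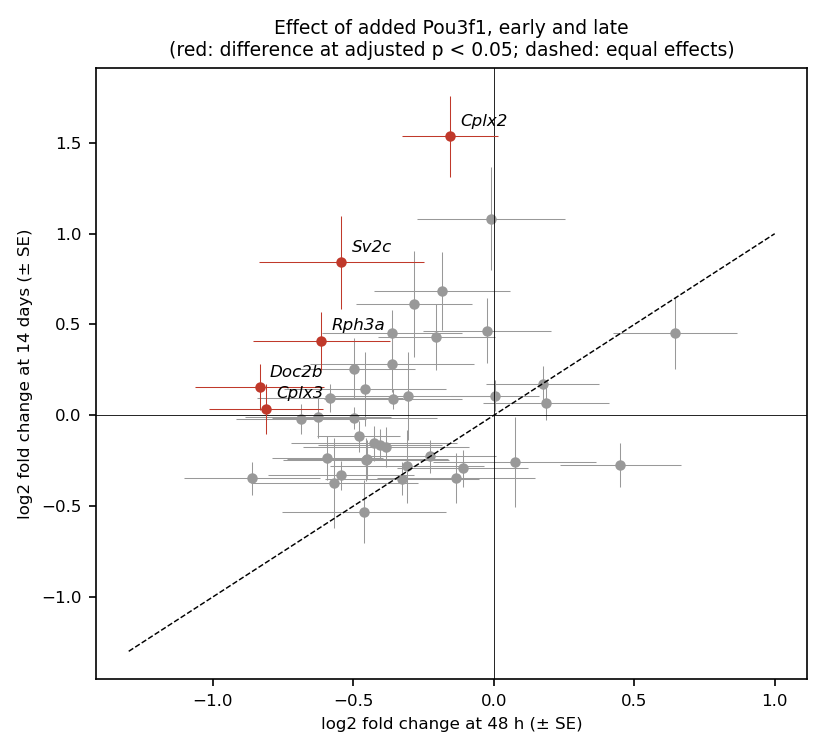
Log2 fold change of the 42 members listed at both times, at 48 h (x axis) and 14 days (y axis), with the authors' SE as bars. Red points mark the 5 genes whose difference passed an adjusted p under 0.05, from 0.85 for Cplx3 to 1.69 for Cplx2. All 5 lie above the dashed line of equal effects.

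Set beside each other, the 3 comparisons called 26 of the 44 genes at least once and 18 in none. Sv2b was lower in all 3, while Doc2b, Cplx3 and Bsn were lower at 48 h and E17.5 but not called at 14 days. Napb was lower at 14 days and E17.5. Cplx2 was the gene with calls in both directions, higher at 14 days and lower at E17.5. Among the 18 never called were Syt1, Snap25, Vamp2, Nsf and Rab3a, the general parts of the fusion machinery.

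Other genes of the same pathway were taken from 4 lists by function, 117 genes in all, that hold no member. At 48 h 1 of 114 tested was higher and 1 lower, beside 1.48% and 1.56% of all genes tested. Unc13d, a priming factor outside neurons, had 0.87 ± 0.24 and Dnajc6, which strips clathrin from retrieved vesicles, -0.74 ± 0.17 in the authors' deposited table (p = 0.0192 and 0.00204 after adjustment). The median over the 114 was -0.070, against -0.37 for the members.

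At 14 days 18 of 116 were higher and 14 lower, with a median of 0.025, beside 11.5% and 9.21% of all genes tested. Rab3b, a vesicle GTPase related to Rab3a, had the largest change of all release genes, 3.12 ± 0.17 at a mean normalized count of 220 in the authors' deposited table, or 8.70-fold higher (adjusted p = 3.58e-68). In the active zone and ribbon list 8 of 29 rose and 3 fell. They included Ptprs, a receptor phosphatase, at 0.60 ± 0.13, and Erc1 and Ppfia4, relatives of Erc2 and Ppfia2, at 0.64 ± 0.15 and 0.76 ± 0.18 in the authors' deposited table (p = 6.00e-05, 0.000374 and 0.000453 after adjustment). In the fusion list 4 of 32 rose and 6 fell, with Snap23, a relative of Snap25, at -0.49 ± 0.11 in the authors' deposited table (p = 0.000132 after adjustment). Of the other vesicle proteins 3 of 25 rose and 2 fell, among them Scamp5 at -0.41 ± 0.11 in the authors' deposited table (p = 0.00242 after adjustment). Of the retrieval genes 3 of 30 rose and 3 fell, with the clathrin adaptor gene Ap2b1 at 0.35 ± 0.083 and Pacsin1 at -0.59 ± 0.16 in the authors' deposited table (p = 0.000503 and 0.00279 after adjustment).

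At E17.5 2 of 112 were higher and 13 lower, with a median of -0.072, beside 4.70% and 5.34% of all genes tested. In the active zone and ribbon list 0 of 28 rose and 1 fell. In the fusion list 1 of 31 rose and 4 fell. Of the other vesicle proteins 0 of 23 rose and 4 fell, and of the retrieval genes 1 of 30 rose and 4 fell. Slc32a1, the vesicular transporter for GABA and glycine in amacrine and horizontal cells, had -0.93 in the authors' deposited table, or 0.523-fold (adjusted p = 6.78e-09). Synpr, a relative of synaptophysin, had -0.71 and Svop, a relative of the SV2 proteins, -0.43 in the authors' deposited table (p = 0.000289 and 5.97e-05 after adjustment). Hspa8, a general chaperone that also uncoats clathrin, had -0.95 and Sh3gl3, an endophilin, 0.46 in the authors' deposited table (p = 4.68e-20 and 0.00312 after adjustment).

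**Figure D5:**
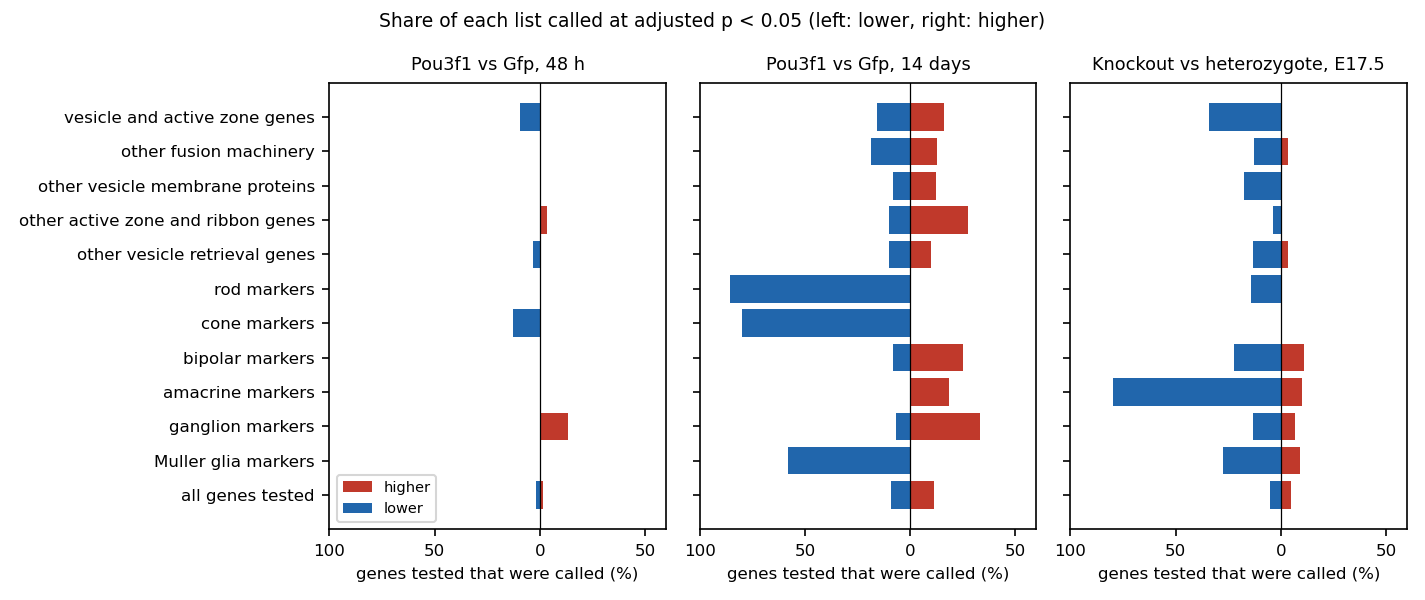
Share of the genes tested in each list (x axis, %) that were called lower (blue, to the left) or higher (red, to the right) at an adjusted p under 0.05 in the 3 comparisons, with all genes tested in the bottom row. At E17.5, 15 of 44 vesicle and active zone genes and 8 of 10 amacrine markers were lower, and at 14 days 12 of 14 rod markers were lower.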

How the data were processed

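RNA was measured by sequencing in 19 mouse retina libraries. Per the submitters' processing notes, the authors used Salmon, DESeq2 and the mm10 build. Those notes give no versions and no annotation. Each deposited table holds 1 finished comparison. The authors' log2 fold changes, and for the overexpression tables their SE, p-values, adjusted p-values and Wald scores, were used as deposited. The signal deposited in the overexpression tables is the mean normalized count over all libraries of a comparison. The listed score equalled the fold change over its SE within 4.45e-07, and the adjusted p was recomputed by Benjamini-Hochberg within 5.60e-06.

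No header states a direction, so signs were read from Pou3f1 (positive under overexpression, negative in the knockout). The name of the E17.5 table gives another embryonic day than the labels, which are used here. Depth per library is unknown. Where labels do not name separate animals, p-values measure the spread between these samples only.

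Fold changes at 48 h and 14 days were compared by a z test, which was run on simulated data. The simulation drew values with the normal errors and SEs that the test assumes. It therefore checks the calculation and cannot show whether the deposited SEs hold. Exonic lengths came from GENCODE M21 and start regions from RefSeq. Genes were named by these rules: any member, up to 4 called genes per pathway list and up to 3 per marker list by adjusted p. Some genes that these rules name are not reported here. The members and lists were chosen with earlier results of these data known. Calls were repeated with stricter limits (adjusted p 0.01, or 2-fold), with p-values adjusted over all genes or over mean counts of at least 10 or 100, and with centring on the median, and with a lowess trend (fraction 0.3) on length removed. Python 3.11.15, pandas 2.3.3, numpy 2.4.6, scipy 1.17.1, statsmodels 0.14.6 and matplotlib 3.10.9 were used.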

Additional observations from a re-analysis of the deposited data

Results flagged for a closer look

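The effect of added Pou3F1 differed between 48 h and 14 days for 5 genes by the z test on the difference itself, with Benjamini-Hochberg adjustment over 14580 genes. The differences in log2 fold change, 14 days minus 48 h, were 1.69 for Cplx2, 1.38 for Sv2c, 1.03 for Rph3a, 0.99 for Doc2b and 0.85 for Cplx3. Among genes with a mean count of at least 100 at both times, 4 of these differences are left, since Sv2c is below that limit. The log2 fold change of Pou3f1 itself was 0.91 at 48 h and 5.57 at 14 days in the authors' deposited table. Time and the size of this contrast cannot be told apart.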

How the results depend on the processing

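Leaving out single libraries was not possible, because each table holds a finished comparison. No paired analysis was possible because the tables carry no values per library. At an adjusted p under 0.01, 1 member was lower at 48 h, 4 were higher at 14 days and 2 differed between the times. With a 2-fold limit, 0 members were lower at 48 h, 2 were higher and 0 lower at 14 days, and 1 was lower at E17.5. The same limits, applied to the other release genes after the data were seen, left 0 higher at 48 h at either limit, 0 lower at 48 h at 2-fold, 6 lower at 14 days under 0.01, 3 higher and 0 lower at 14 days at 2-fold, and at E17.5 1 higher under 0.01, 0 higher and 0 lower at 2-fold. Adjusted over all genes, 1 of the other release genes was higher at E17.5. Of 33 member calls, 30 were kept when p-values were adjusted over all genes, the exceptions being Bsn at 48 h and Cplx1 and Rph3a at 14 days. The remaining 47 counts and medians moved by at most 1.5 times or less than 1 SD. Among these, at an adjusted p under 0.01, members lower at E17.5 went from 15 to 10 and other release genes higher at 14 days from 18 to 12. The 14 day median of the members crossed 0 once the length trend was removed (0.014). Wide SEs at 48 h limit calls there.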
